A study of Bos taurus with 16 samples.

Results

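Pluripotency and inner cell mass factors are the genes that keep cells of the early embryo able to form every tissue of the body. The 10 genes described here, POU5F1, NANOG, SOX2, SALL4, KLF4, KLF5, ESRRB, PRDM14, LIN28B and TDGF1, were found by their gene names in the count tables, and each had 1 locus of the 22358 loci listed. Their locus identifiers are XLOC_011593, XLOC_017278, XLOC_000685, XLOC_003968, XLOC_020574, XLOC_002908, XLOC_001341, XLOC_004338, XLOC_020975 and XLOC_011368 in the same order. They were measured in bovine blastocysts by RNA-Seq, in 16 embryo pools from 8 superovulated Holstein cows, with 2 pools per cow. The question was whether the level of methionine in the diet of the cow was followed by a difference in gene expression of her embryos.

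The Control treatment was a basal diet, and the Methionine treatment was the same diet with rumen-protected methionine added, each fed to 4 cows from calving until the embryos were flushed. The tissue label of the samples reads IVF embryos, whereas the methods of the study describe artificial insemination and flushing of expanded blastocysts from the uterus. The 8 cows were selected from a larger trial by how many embryos they gave and the quality of these, so they do not stand for all cows fed the diets. The sires were balanced over the cows but are not known per pool. Pools are named by a letter for the treatment (C or M), the number of the cow and the number of the pool, so that C4.2 is the second pool of cow 4. By the numbers that the study lists per pool, C4.1, C4.2 and M8.2 were each a single blastocyst and the others held more, with the higher numbers in Methionine pools, so that the number of embryos was not balanced between treatments. The description of the series gives a range of embryos per pool that leaves out single ones, and what is said here of single blastocysts rests on the list.

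The blastocyst has an outer layer, the trophectoderm, which forms the placenta, and an inner cell mass, which separates into epiblast and hypoblast. The transcription factors POU5F1 (also called OCT4), SOX2 and NANOG hold the epiblast in its pluripotent state, and SALL4 and the Krüppel-like factors act on many of the same target genes. In cattle, SOX2 is a marker of the inner cell mass at this stage, whereas POU5F1 is also found in the trophectoderm. Since whole blastocysts were used, fewer inner cell mass cells in a pool and less RNA per cell cannot be told apart.

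The total count ranged from 5624126 to 7826542 in 15 pools, and it was 1745048 in C3.2, which the study left out and which was left out here except where stated. Values are CPM, the counts of a gene divided by the total of its pool and brought to a common scale, and a floor of 3 counts in a pool corresponded to between 0.383 and 0.533 CPM. The RNA was amplified before sequencing and lengths of the loci were not used, so levels are compared between pools and not between genes. Trophectoderm markers were found in every pool, led by KRT18, but not all of them. EOMES had counts in 2 of the 15 pools, TFAP2A and ELF5 in 6 each, CDX2 in 12 and the IFNT loci in 14 and 2. The summed level of the trophectoderm markers ranged from 4078 to 10070 CPM in Control and from 3269 to 7311 CPM in Methionine pools. Of the hypoblast markers, GATA6 and PDGFRA were found in all 15 pools and SOX17 was at 0 in all 16, with sums of 120 to 283.9 CPM in Control and 148.4 to 371.3 CPM in Methionine pools. Leukocyte markers summed to 2363 CPM in C2.1 and to at most 29.7 CPM in the other Control pools and 10.6 CPM in Methionine pools, and 5 of their 6 tested loci (LAPTM5, NKG7, TYROBP, LCP1 and CD53) were higher in Control by the exact test. Oocyte markers summed to between 6.401 and 25.2 CPM. Without C2.1, 64 loci were called and none of them was a member. In C3.2, POU5F1 stood at 5.73 CPM, SALL4 at 0 counts, and no member lay above the highest of the other Control pools.

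None of the 8 genes that passed the filter on low counts was called as differentially expressed between treatments. Of 10519 loci that passed the filter on low counts, the exact test of edgeR called 110 (1.05%) at an FDR under 0.1. Control was the higher treatment for 81 of these and Methionine for 29. The filter kept 8 of the 10 genes and removed ESRRB and TDGF1, and 0 of the 8 passed. With 1.05% of all tested loci called, 0 of 8 is not read as absence of a difference. At an unadjusted p under 0.05 the exact test gave 0 of the 8 genes, against 898 loci (8.54%) of all those tested. With the counts of both pools of a cow summed, so that the cow was the unit, the quasi-likelihood test of edgeR called 0 of 10519 loci (0%), with 658 loci and 0 of the 8 genes at an unadjusted p under 0.05. DESeq2 called 69 loci, limma voom 0 (421 at an unadjusted p under 0.05) and the quasi-likelihood test on single pools 0 (909 at an unadjusted p under 0.05), and none of these called a member. The median log2 fold change, Methionine over Control, was -0.19 over the 8 genes and -0.05 over all tested loci.

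**Figure D1:**
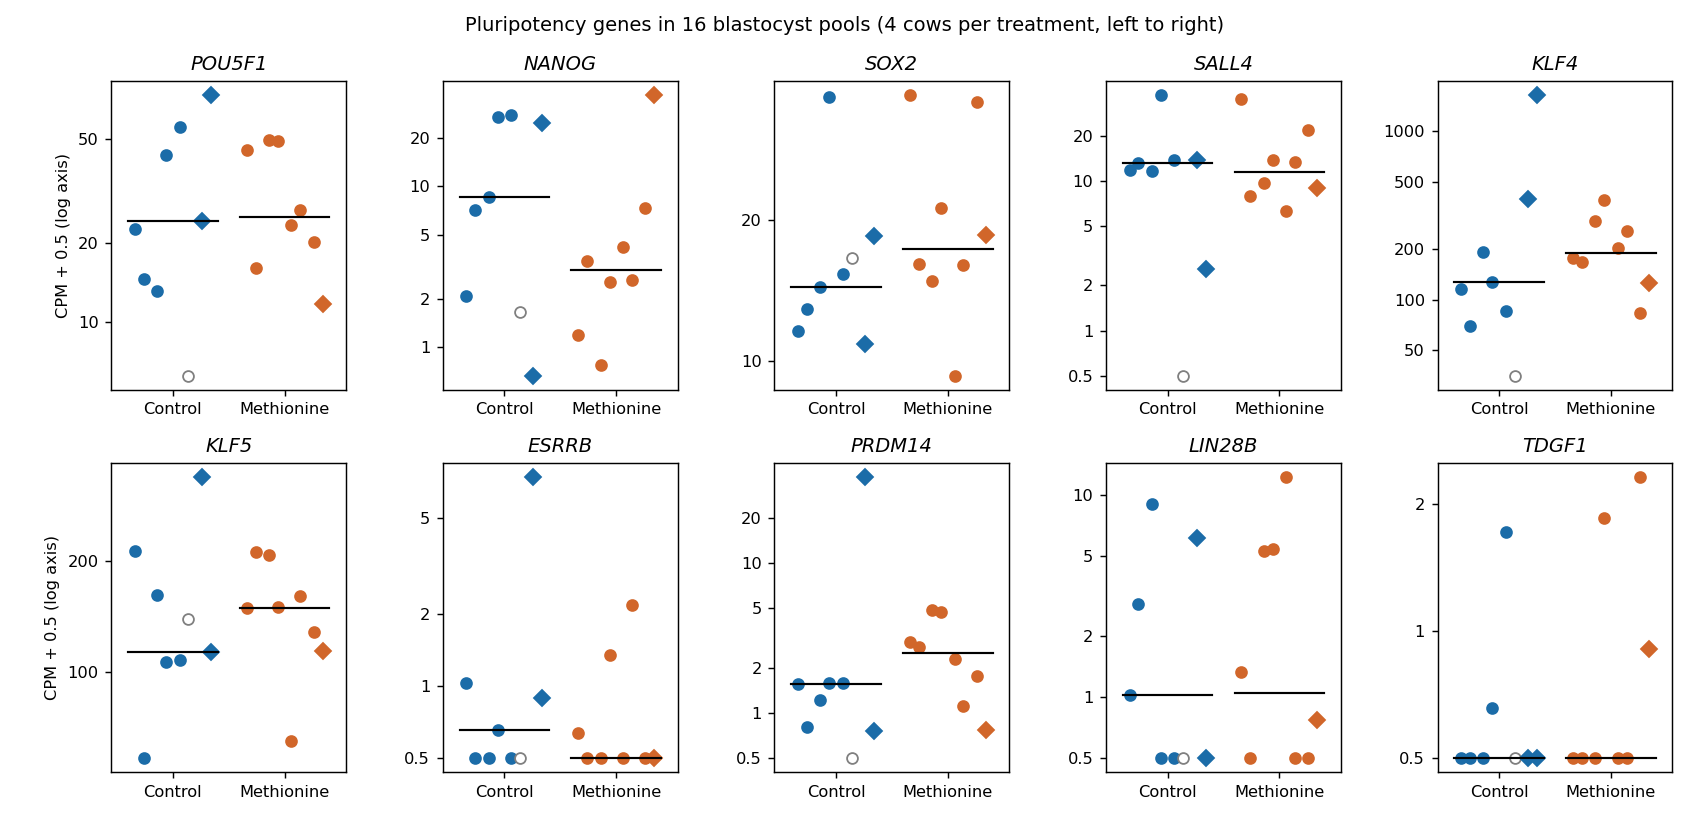
CPM plus 0.5 on a log axis for each of the 10 genes, by treatment; each point is 1 pool, with the cows from left to right, diamonds are pools of a single blastocyst, the open circle is C3.2 and the black line is the median without it. The treatments overlapped for all 10 genes, but the share of all loci that overlap was not computed, so nothing is read from this count. The highest points of NANOG, KLF4, KLF5, ESRRB, PRDM14 and POU5F1 were diamonds.

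The core factors POU5F1, SOX2 and NANOG had counts in all 15 pools. POU5F1 ranged from 12.6 to 73.2 CPM (median 23.7) in the 7 Control pools, and its range was 11.2 to 48.9 CPM (median 24.6) in the 8 Methionine pools. The highest pool was C4.2 and the lowest M8.2, both of a single blastocyst, and the treatments overlapped. The log2 fold change was -0.24 (exact test, p = 0.61, FDR = 1). Over the 4 cows of each treatment, the mean log2 level differed by -0.25 ± 0.51 (SE, Methionine minus Control; two-sided exact permutation test, 70 possible assignments of cows, p = 0.629). With 4 cows against 4, the smallest p this test can give is 0.0286.

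SOX2 varied little for a gene of its level, apart from 3 high pools. It ranged from 10.4 to 36.1 CPM (median 13.9) in the 7 Control pools, and its range was 8.82 to 36.4 CPM (median 16.8) in the 8 Methionine pools. Pools C2.2, M5.1 and M8.1 stood at 36.1, 36.4 and 35.2 CPM and the other 12 pools lay at or under 20.7 CPM. Of 8 Methionine pools, 7 were above the Control median, and of 7 Control pools 2 were above the Methionine median. Methionine over Control, SOX2 had a log2 fold change of 0.31 (exact test, p = 0.533, FDR = 1) and the difference between cow means 0.29 ± 0.31 (SE, n = 4 cows per treatment, exact permutation p = 0.4). Its sign was positive in all alternatives run, with log2 fold changes between 0.09 and 0.57 and no FDR under 0.909. Among 1467 loci of like mean level, 16.4% varied less between pools, as measured by the coefficient of variation of CPM.

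NANOG, which the epiblast needs to stay apart from the hypoblast, showed the widest range of the core factors. In Control pools it stood at 1.58 and 6.598 CPM in cow 1, 8.001 and 26.2 CPM in cow 2, 27.2 CPM in C3.1, and 0.165 and 24.2 CPM in cow 4. In Methionine pools it stood at 0.689 and 2.90 CPM in cow 5, 0.273 and 2.02 CPM in cow 6, 3.71 and 2.13 CPM in cow 7, and 6.82 and 36.2 CPM in cow 8. Thus 7 of 8 Methionine pools lay under the Control median of 8.001 CPM, while the highest pool of all, M8.2, was a Methionine pool and the lowest, C4.1 with 1 count, was a Control pool. NANOG had a log2 fold change of -0.81 (exact test, p = 0.372, FDR = 0.99; DESeq2 gave -0.77 ± 0.94, SE). The difference between cow means was -1.35 ± 1.06 (SE, n = 4 cows per treatment, exact permutation p = 0.2).

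The sign for NANOG was negative in all alternatives run, from -2.65 to -0.39 on the log2 scale. The largest difference was found without cow 8 (-2.65, exact test, p = 0.00653, FDR = 0.27), and without M8.2 alone it was -2.18 (FDR = 0.36). The exact test takes the pools of a cow as independent, which they are not. With cows as the unit, the difference between cow means without cow 8 was -2.09 (exact permutation p = 0.114). No alternative brought NANOG under an FDR of 0.1. M8.2 held 66.8% of all NANOG counts of the Methionine pools.

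SALL4, a zinc finger factor that works with the NuRD chromatin complex, was found in all 15 pools. It ranged from 2.06 to 36.8 CPM (median 12.6) in the 7 Control pools, and its range was 5.75 to 34.9 CPM (median 11.02) in the 8 Methionine pools. The highest pools were C2.2 and M5.1, which were also among the highest for SOX2, and the lowest was C4.2. For SALL4 the log2 fold change was -0.06 (exact test, p = 0.913, FDR = 1) and the difference between cow means 0.06 ± 0.42 (SE, n = 4 cows per treatment, exact permutation p = 0.914).

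KLF4 and KLF5, Krüppel-like factors with a role in pluripotency (KLF5 also in trophectoderm), had at least 387 counts in each of the 15 pools. KLF4 ranged from 69.0 to 1624 CPM (median 126) in the 7 Control pools, and its range was 82.5 to 388 CPM (median 189) in the 8 Methionine pools. C4.2 stood at 1624 CPM and the next pool, C4.1 of the same cow, at 391.5 CPM, and C4.2 alone held 67.0% of the KLF4 counts of the Control pools. KLF4 had a log2 fold change of -0.79 (exact test, p = 0.141, FDR = 0.824), and without cow 4 it turned to 0.82 (p = 0.0431, FDR = 0.571). Without C4.2 alone it was 0.32. The difference between cow means was 0.13 ± 0.84 (SE, n = 4 cows per treatment, exact permutation p = 0.857), opposite in sign to the fold change over pools. Without cow 4 this difference between cow means was 0.86 (exact permutation p = 0.114). Among 342 loci of like mean level, 99.7% had a smaller coefficient of variation than KLF4. C4.2 was also the pool with the highest summed level of trophectoderm markers, 10070 CPM, with at most 8757 CPM in the other Control pools. Of the 7 Control pools it was the highest for the hypoblast markers too, at 283.9 CPM against at most 266.5 CPM. Methionine pools reached 371.3 CPM for the hypoblast markers. The part of either in the KLF4 value was not tested.

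KLF5 ranged from 58.0 to 337 CPM (median 113) in the 7 Control pools, and its range was 64.4 to 211 CPM (median 149) in the 8 Methionine pools. Its highest pool was C4.1, and 7 of 8 Methionine pools were above the Control median. The log2 fold change was -0.14 (exact test, p = 0.712, FDR = 1), 0.15 without cow 4, and the difference between cow means was 0.08 ± 0.28 (SE, n = 4 cows per treatment, exact permutation p = 0.857). Both factors were thus higher in most Methionine pools than in the middle Control pool, and the negative sign of their fold changes was lost without cow 4.

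**Figure D2:**
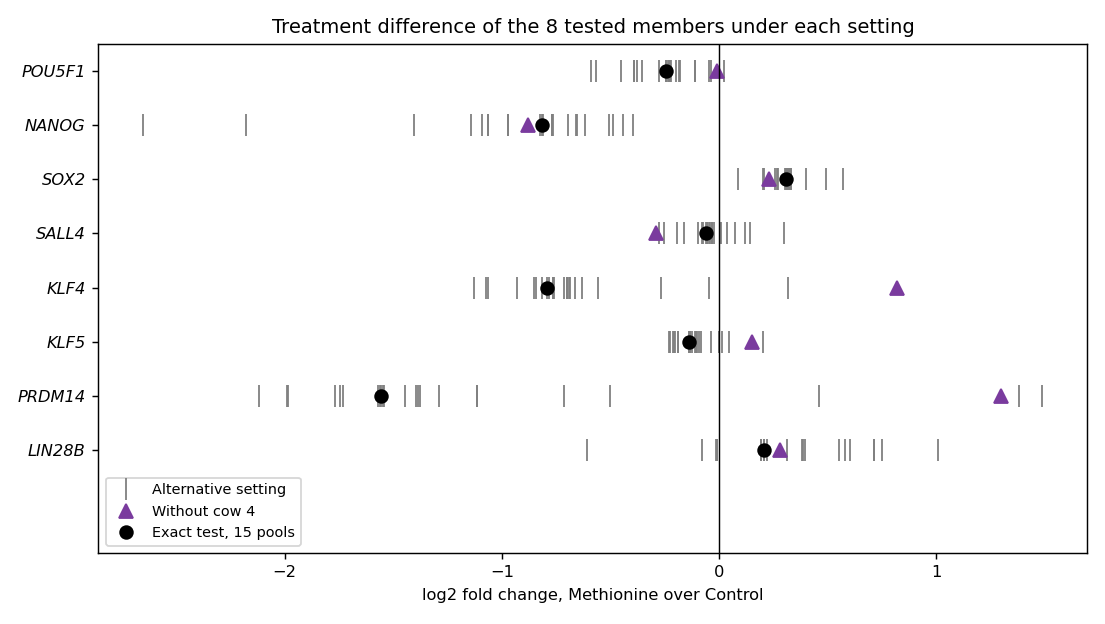
The log2 fold change (Methionine over Control) of the 8 tested genes by the exact test on 15 pools (circle), without cow 4 (triangle) and in each other alternative setting (ticks). NANOG stayed below 0 and SOX2 above 0 in all settings, whereas KLF4 and PRDM14 moved from -0.79 and -1.56 to 0.82 and 1.30 without cow 4.

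PRDM14, a regulator of naive pluripotency and of the germ line, was low and found in all 15 pools. It stood between 0.257 and 1.08 CPM in 6 Control pools and at 36.8 CPM, 223 counts, in C4.1. In Methionine pools it ranged from 0.270 to 4.36 CPM with a median of 2.02, and 6 of 8 were above the Control median of 1.06. PRDM14 had a log2 fold change of -1.56 (exact test, p = 0.14, FDR = 0.822), but 1.49 without C4.1 (FDR = 0.847) and 1.30 without cow 4. DESeq2, whose default settings replace outlier counts of single pools, gave 1.38 ± 0.73 (SE, unadjusted p = 0.0586). The difference between cow means was 0.24 ± 0.68 (SE, n = 4 cows per treatment, exact permutation p = 0.743). The single blastocyst C4.1 held 87.8% of the PRDM14 counts of the Control pools.

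ESRRB, an orphan nuclear receptor of the naive state in mouse, was at the limit of what the depth can show. It had 42 counts in C4.1, 11 in M7.2, 5 in M6.2, 4 in C1.1 and 3 in C4.2, at most 1 count in each of the remaining pools, and 0 counts in 8 of 15 pools. C4.1, the highest pool for PRDM14 and KLF5, was thus the highest for ESRRB too, at 6.92 CPM. The gene did not reach the summed CPM of 15 that the filter asked for, and the difference between cow means was -0.28 ± 0.59 (SE, n = 4 cows per treatment, exact permutation p = 0.771).

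LIN28B, an RNA-binding protein that blocks maturation of the let-7 microRNAs, was present in some pools and not detected in others. It had 48 counts in C2.1 and 0 in C2.2, 34 in C4.1 and 0 in C4.2, and 92 in M7.1 and 0 in M7.2. The pools of cow 6 were alike with 35 and 29 counts, and cows 3, 5 and 8 had at most 6 counts in any pool analysed. In all, 6 of 15 pools were at 0, 3 in each treatment. The log2 fold change was 0.21 (exact test, p = 0.922, FDR = 1) and the difference between cow means 0.26 ± 0.86 (SE, n = 4 cows per treatment, exact permutation p = 0.743). Its paralogue LIN28A was found in all 15 pools, at 26.4 ± 13.1 CPM in Control (SD, n = 7) and 21.3 ± 8.05 CPM in Methionine (SD, n = 8), with an FDR of 1.

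TDGF1, or Cripto, the co-receptor of the growth factor NODAL, had 13 counts in M8.1, 9 in C3.1, 8 in M6.2, 3 in M8.2 and 1 in C2.2, and 0 in the other 10 pools. The highest level was 1.81 CPM. The gene did not reach the filter, and the difference between cow means was 0.13 ± 0.57 (SE, n = 4 cows per treatment, exact permutation p = 1). NODAL itself was at 0 in all 16 pools, and GDF3, a related ligand, had at most 23 counts. A count of 0 is not read here as absence, since GAPDH, used by every cell, had at most 5 counts at the first of its 2 loci and at most 64 at the other.

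Over the 10 genes, the differences between cow means ran from -1.35 for NANOG to 0.29 for SOX2, with 7 above 0 and 3 below, and the lowest permutation p was 0.2. The exact permutation test gave 0 of 10 at p under 0.05. It was not run on the other loci, so no share over all loci stands beside this count and nothing is concluded from it.

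Sister pools of a cow differed in these genes by an SD under the median of tested loci for some and above it for others. The SD between the pools of a cow, on the log2 scale of CPM plus 0.5, was 0.63 for SOX2, 0.64 for KLF4, 0.78 for KLF5, 0.80 for POU5F1, 1.08 for SALL4, 1.59 for PRDM14, 1.78 for NANOG and 2.01 for LIN28B. Between cow means within a treatment the SD was 0.72 for POU5F1, 0.45 for SOX2, 0.60 for SALL4, 0.96 for PRDM14, 1.22 for LIN28B, 1.49 for NANOG, 1.18 for KLF4 and 0.40 for KLF5. The SD between sister pools was larger than that between cow means for 7 of these 8 genes and smaller for KLF4. Most cow means average 2 pools, which by itself lowers their SD below that of single pools. The comparison therefore does not show whether pools of a cow vary more than cows do. The median over tested loci was 1.07 within and 0.82 between cows.

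Cow 4, whose pools were single blastocysts, was the cow with the most divergent pools. In C4.1 against C4.2, 6 of the 10 genes differed by over 4-fold, and in each of the other 6 cows with both pools at most 2 did; over all tested loci the share was 25.9% in cow 4 and 15.5% to 24.6% in the other cows. NANOG had 1 count in C4.1 and 188 in C4.2, PRDM14 had 223 and 2, and ESRRB 42 and 3. KLF5 was highest of all pools in C4.1, and POU5F1 and KLF4 in C4.2, where SALL4 and PRDM14 were lowest. These are 2 embryos, so how far cow 4 stands for embryos in general is not known from them.

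**Figure D3:**
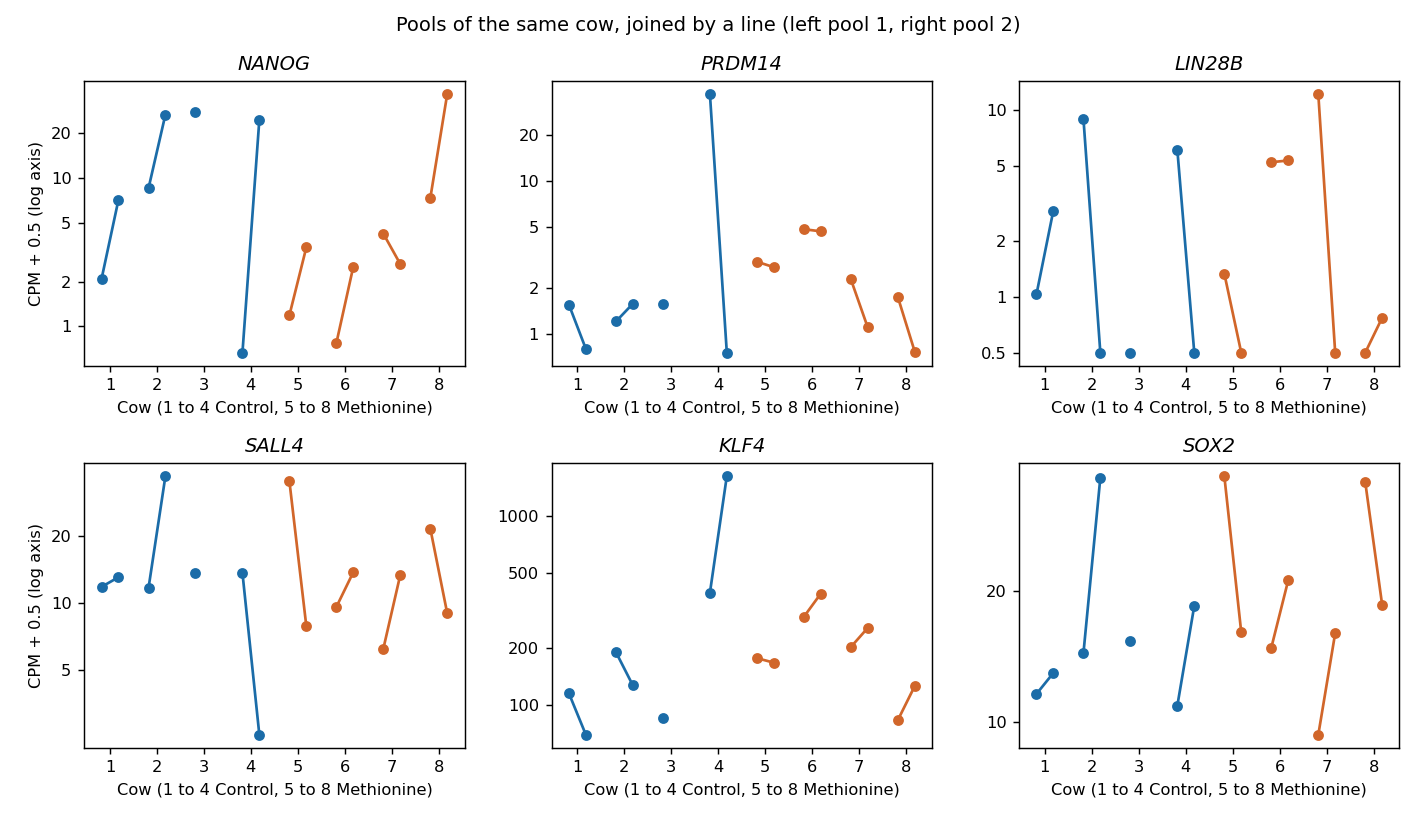
CPM plus 0.5 on a log axis in the pools of each cow (1 to 4 Control in blue, 5 to 8 Methionine in orange), with both pools of a cow joined by a line; cow 3 has 1 pool. NANOG and PRDM14 ran in opposite directions in cow 4, LIN28B went from 92 counts to 0 in cow 7, and SOX2 and SALL4 ran in the same direction in cows 1, 2, 5, 6, 7 and 8 and in opposite directions in cow 4.

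Ratios of counts within a pool are free of the pool total, and they are compared between pools; since lengths were not used, a ratio does not say which of 2 genes was the higher. NANOG over POU5F1 ranged from 0.00557 in M6.1 to 3.23 in M8.2, with a median of 0.186. The Control median was 0.468 and the Methionine median 0.121, with overlap in both directions. SOX2 over POU5F1 had a smaller range, from 0.246 in C4.2 to 1.79 in M8.1, with medians of 0.5 and 0.700.

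SALL4 over SOX2 was between 0.808 and 1.27 in 6 Control pools and 0.114 in C4.2, and between 0.470 and 0.958 in the 8 Methionine pools. The medians were 1.01 and 0.640, and the treatments overlapped. KLF4 over KLF5 stayed between 0.539 and 3.14 in 14 pools and was 14.4 in C4.2.

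**Figure D4:**
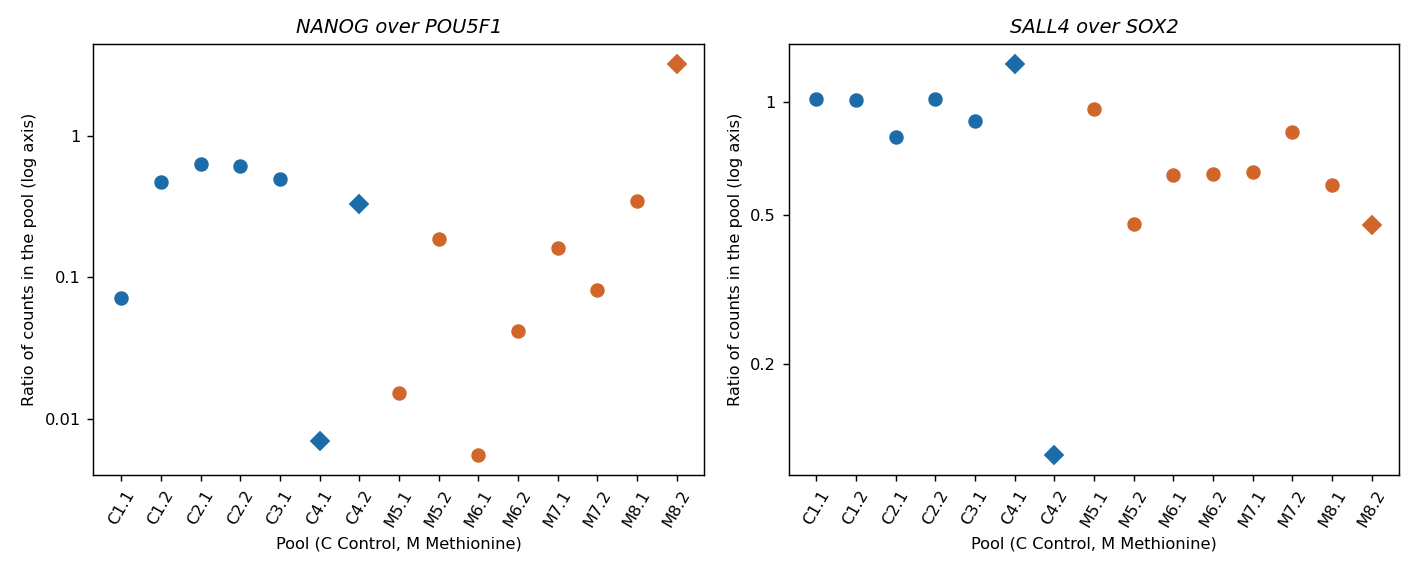
Ratio of counts in each of 15 pools on a log axis, NANOG over POU5F1 on the left and SALL4 over SOX2 on the right; Control is blue, Methionine orange, and diamonds are single blastocysts. NANOG over POU5F1 spans 0.00557 to 3.23, and SALL4 over SOX2 spans 0.470 to 0.958 in Methionine pools and 0.114 to 1.27 in Control pools, with C4.2 the lowest.

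The members did not move as a block from pool to pool. Over 15 pools, which share cows and are not independent, the Spearman correlation of CPM was above 0.5 in 0 of the 28 pairs of tested genes and below -0.5 in 3. These were NANOG with PRDM14 (-0.70; -0.61 in the 13 pools without cow 4), NANOG with KLF5 (-0.66; -0.56 without cow 4) and SOX2 with LIN28B (-0.55; -0.48 without cow 4). The highest was SOX2 with SALL4 at 0.49, which was 0.23 without C2.2 and M5.1, the pools farthest from the median of SOX2, and 0.68 without cow 4. POU5F1 with KLF4 stood at 0.49 and POU5F1 with NANOG at -0.18. With cow means (n = 8), the 3 pairs below -0.5 over pools stood at -0.48, -0.31 and -0.36, in the order given above. The exact permutation test over all pairings of cow means gave Spearman p-values under 0.05 in 2 of 28 pairs, neither of them among those 3. The 2 pairs were KLF4 with PRDM14 (0.83 over cows, 0.31 over pools) and SOX2 with SALL4 (0.74 over cows). The smallest value of this test adjusted over the 28 was 0.403 (0.136 for Pearson), so no pair is singled out. The correlations are descriptions, since pools share depth and amplification as well as embryos.

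**Figure D5:**
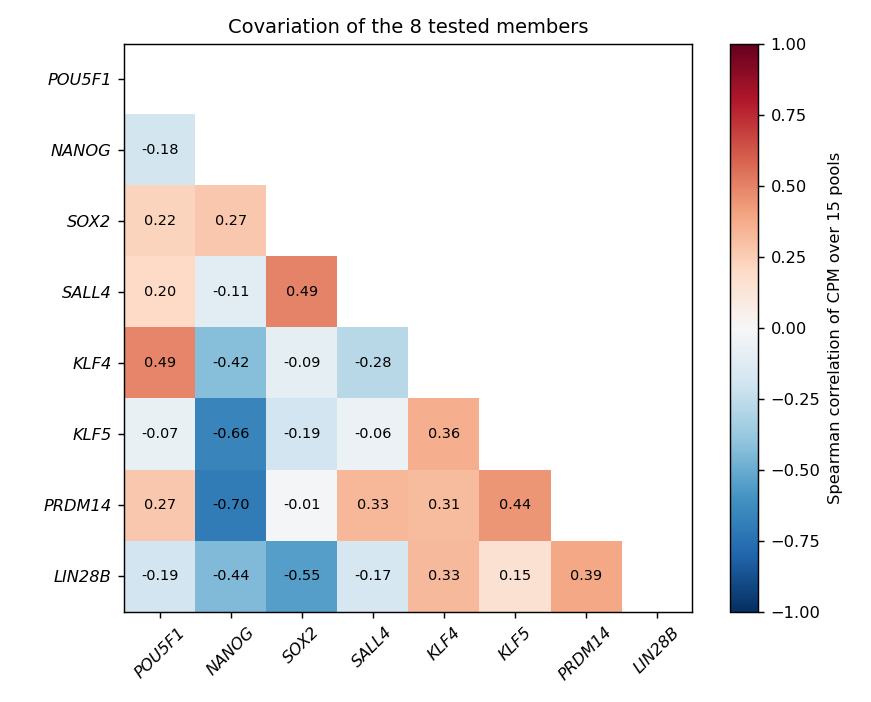
Spearman correlation of CPM over 15 pools for each of the 28 pairs of the 8 tested genes, from -1 (blue) to 1 (red), with the value in each square. NANOG was negative with PRDM14 (-0.70) and KLF5 (-0.66), and no pair reached 0.5.

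Each tested member was compared over the 15 pools with loci of mean CPM at least 10. Few of these loci were members, and NANOG, PRDM14 and LIN28B lay under that level. That the loci whose level ran closest to each tested member were outside the list therefore says nothing about the list. For POU5F1 these were SRPK1 (Spearman 0.93), ESD (0.90) and KRT5 (0.89), and for SOX2 they included OXA1L (0.91) and SNX24 (0.90). For NANOG they were PCIF1 (0.82), LLGL1 (0.80) and LGALS3BP (0.78). For SALL4 they were C8H9orf80 (0.83), GALM (0.83) and ARMC1 (0.81), and for KLF4 CSRP2 (0.92), SPRED1 (0.86) and SDC4 (0.85). For KLF5 they were CTNNB1 (0.95), CALM2 (0.93) and ARID1A (0.92), for PRDM14 C7H5orf63 (0.83), HIAT1 (0.81) and MKRN1 (0.81), and for LIN28B RPL36AL (0.80), ARSB (0.74) and C7H5orf32 (0.73). Each tested member was compared with 5131 or 5132 loci, and nothing is read from them about function.

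Of the wider pluripotency and epiblast genes, 25 of 30 symbols were found, 15 were tested and 0 passed, with 0 of 15 at an unadjusted p under 0.05. Over all tested loci the exact test called 1.05%, with 8.54% at an unadjusted p under 0.05, so nothing is read from these counts. The median log2 fold change of the 15 was 0.20. DPPA3 and DPPA4 were found in all 15 pools, at 101 ± 40.0 CPM in Control (SD, n = 7) and 85.1 ± 25.6 CPM in Methionine (SD, n = 8) for DPPA3 and at 119 ± 117 CPM and 122 ± 76.0 CPM for DPPA4. Both had FDRs of 0.998 or more. DPPA2 had between 0 and 100 counts. FGF4, DNMT3B and FOXD3 were at 0 in all pools, KLF2 had at most 13 counts and KLF17 at most 4. The symbols DPPA5 and ZFP42 were not analysed here.

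The lists of other pathway genes held no called locus, where 1.05% of all tested loci were called, so nothing is read from their counts. Of the NODAL pathway around TDGF1, 4 of 13 loci were tested and 0 passed; LEFTY2, an inhibitor of NODAL, had at most 2 counts at either of its loci. Of the LIN28 and let-7 pathway, 11 of 13 loci were tested and 0 passed, with 2 at an unadjusted p under 0.05. Of the LIF and STAT3 signalling genes, 6 of 9 were tested, of the chromatin partners of POU5F1 and SALL4 15 of 16, and of the other KLF family genes 8 of 14, and 0 passed in each, with 0, 2 and 2 at an unadjusted p under 0.05. Over these lists the quasi-likelihood test on cow sums called 0 loci, as it did over all 10519 tested.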

How the data were processed

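RNA of 16 bovine blastocyst pools was amplified over several rounds and sequenced by the authors, who mapped reads to the genome bosTau7 with TopHat2 2.0.4 with at most 2 mismatches, assembled transcripts with Cufflinks 2.0.2 and counted reads per gene with HTSeq. The deposited files hold raw counts per locus, 1 table per pool, and the 22552 rows name 22358 loci, each of which was used once. Pools were grouped by treatment from their labels. CPM are counts over the pool total.

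Loci with summed CPM of at least 15 over 15 pools were tested with the exact test of edgeR 4.0.16 in R 4.3.3 (TMM normalization, common and tagwise dispersions, Benjamini-Hochberg FDR under 0.1), without C3.2, as in the study. Since cows are the independent units, the quasi-likelihood test of edgeR on counts summed per cow and an exact permutation test on cow means of log2(CPM + 0.5) were added. DESeq2 1.42.0 and limma 3.58.1 were alternatives, as were normalizations, filters, pseudocounts, all 16 pools, each cow left out and, chosen after seeing the data, 4 single pools left out. The fits were tested on simulated data. Pool numbers were checked as pairs, with a mean correlation of deviations of -0.072 within the same number and -0.063 between different numbers. Correlations were computed in Python 3.11.15 with numpy 2.4.6 and pandas 2.3.3.

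The members and gene lists were chosen with earlier results of these data known. The text names all members, genes of the lists called by the exact test or the cow-level test, direct partners or homologues of members, and the 3 loci with a level most like each member, of which 1 is not reported here. Single cell type markers, FOXD3 and GAPDH were named after their values were seen. All 10 symbols matched the RefSeq gene table of ARS-UCD2.0; coordinates and sequences were not used here, because that build differs from bosTau7. Sire and sequencing lane per pool were not known and not used.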

Additional observations from a re-analysis of the deposited data

Results flagged for a closer look

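Of 20 groups examined (10 genes in 2 treatments), 8 had a highest pool that stood apart from the rest of its treatment by Dixon's test on CPM. Where values are normally distributed, chance flags the highest or the lowest pool in about 1 in 20 such groups, and the highest alone in fewer. CPM are skewed, and in Control pools TDGF1 was at 0 in 5 of 7 and ESRRB in 3 of 7, so the 8 cannot be read against that rate. In Methionine pools these were NANOG in M8.2 (36.2 CPM) and LIN28B in M7.1 (11.8 CPM). In Control pools they were SOX2 and SALL4 in C2.2 (36.1 and 36.8 CPM), KLF4 in C4.2 (1624 CPM), ESRRB and PRDM14 in C4.1 (6.92 and 36.8 CPM) and TDGF1 in C3.1 (1.21 CPM). The 8 values fell in 6 pools, of which C4.1, C4.2 and M8.2 were single blastocysts. On the log2 scale 3 of the 8 remained, ESRRB and PRDM14 in C4.1 and TDGF1 in C3.1.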

How the results depend on the processing

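The number of loci called depended on the test: 110 by the exact test, 69 by DESeq2, and 0 by the quasi-likelihood test on pools, on cow sums, by limma voom, with a replicate block for pool number and with blastocyst number as a covariate. It was 55 with no filter, 6 with at least 1 CPM in 7 pools, 341 with all 16 pools, 64 without C2.1 and 62 to 153 with each cow left out. No fit called a member. The pool number did not pair the pools, and the replicate block turned the sign only for KLF5 (log2 fold change 0.013), with 713 loci at an unadjusted p under 0.05. The share of calls higher in Control was 73.6% and ran from 48.5% without cow 7 to 90.2% without cow 4.

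Of the log2 fold changes of members under the alternatives, 167 had the sign reported and 24 the opposite sign. PRDM14 gave 1.38 with DESeq2, 0.46 with voom and 1.49 without C4.1. SALL4 gave 0.144 with voom, 0.121 with all 16 pools and 0.009 without M8.2. KLF5 gave 0 after rounding, just above it before, in both fits on cow sums, 0.045 with voom and 0.205 without C4.1. Without C4.2, POU5F1 gave 0.025, KLF4 0.316 and LIN28B -0.015. Leaving out 1 cow at a time gave -1.128 to 0.819 for KLF4, -2.117 to 1.298 for PRDM14, -0.231 to 0.151 for KLF5, -0.29 to 0.3 for SALL4 and -0.608 to 0.749 for LIN28B, while NANOG (-2.651 to -0.394), SOX2 (0.086 to 0.572) and POU5F1 (-0.567 to -0.007) kept their sign. Of the differences between cow means, the sign turned in POU5F1 with all 16 pools (0.146) and in PRDM14 with pools summed before CPM (-0.144); leaving out 1 cow gave -0.542 to 0.021 for POU5F1, -0.287 to 0.32 for SALL4, -0.218 to 0.857 for KLF4, -0.031 to 0.269 for KLF5, -0.538 to 0.249 for ESRRB, -0.123 to 0.737 for PRDM14, -0.312 to 0.721 for LIN28B and -0.179 to 0.554 for TDGF1. The cause of these turns was not tested.

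With 4 cows per treatment the permutation test cannot go below p = 0.0286, and ESRRB, TDGF1 and LIN28B lie near the floor of 3 counts in many pools. PRDM14 reached that floor in 12 of the 15 pools and NANOG in 13. The number of embryos per pool was not balanced between treatments, and the sire is not known per pool.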
